A study of Mus musculus with 17 samples.

Results

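The miR-34 family was followed in mouse kidney after ischemia reperfusion injury (IRI) through its 4 entries on the array, mmu-miR-34a, mmu-miR-34b-3p, mmu-miR-34b-5p and mmu-miR-34c. They were chosen by name, without the entries marked as star strands, out of 569 mature mouse miRs. Of the 4, miR-34a stood above the empty spots of the array in all 17 samples, miR-34b-3p in 13, miR-34c in 8 and miR-34b-5p in 5. miR-34a is therefore the entry whose level could be followed over time, and the difference between IRI and sham in its level was smaller than the spread over days.

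miR-34 miRs are transcribed from 2 loci, one for miR-34a and one shared by miR-34b and miR-34c. Both loci are textbook targets of p53, the transcription factor that is stabilised by DNA damage and hypoxia. The mature miRs repress mRNAs for cell cycle and survival factors, and miR-34b and miR-34c are best known from multiciliated epithelia such as those of airway and oviduct.

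The kidneys came from C57/BL6 mice aged 10 to 12 weeks, and each sample held RNA pooled from 3 mice. IRI kidneys had 30 minutes of warm ischemia and sham kidneys had surgery alone. Both arms were collected at 8 times, in the first week on days 1, 3, 5 and 7 and afterwards on day 10, day 14, day 21 and day 30, with 1 pool per arm and day, and 1 naive sample came from untreated kidneys. The labels give female mice and the methods male mice. On each of 8 arrays the IRI pool was labelled with Cy3 and the sham pool of the same day with Cy5, so that dye and arm cannot be told apart in a mean ratio. The naive sample was hybridised alone in Cy3 on a 9th array, so that array and group cannot be told apart there.

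The array sequences are shown first because they set which probes can be told apart. Capitals mark the seed, bases 2 to 8 counted from the 5′ end, which selects the target mRNAs. The 4 family entries read as follows.
miR-34a: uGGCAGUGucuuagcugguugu
miR-34b-5p: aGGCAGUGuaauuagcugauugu
miR-34c: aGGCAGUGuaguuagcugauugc
miR-34b-3p: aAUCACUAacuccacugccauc
miR-34a, miR-34b-5p and miR-34c share 1 seed, whereas miR-34b-3p comes from the other arm of its hairpin and has another. miR-34b-5p and miR-34c lay 2 edits apart over their 23 bases and cross-hybridisation between their probes was not tested, whereas miR-34a lay 4 edits from miR-34b-5p and 5 from miR-34c. In all, 9 entries of the array carried one of the 2 seeds. The other 5 were the following.
miR-449a: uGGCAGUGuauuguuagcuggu
miR-449b: aGGCAGUGuuguuagcuggc
miR-449c: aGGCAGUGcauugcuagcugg
miR-699: aGGCAGUGcgaccuggcucg
miR-34c*: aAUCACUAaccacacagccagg
The miR-449 miRs are the relatives of the family in multiciliated cells, and miR-34c* is the passenger strand of miR-34c. Of the 9 sequences, 6 were identical to a mature miR in the RefSeq table for build GRCm38.p6, among them miR-34a, miR-34b-3p, miR-34b-5p and miR-34c*.

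In that build, Mir34a lies on chromosome 4 from 150068454 to 150068555 and overlaps no other gene in the RefSeq gene table, with the mature strand at 150068473 to 150068494 on the plus strand. Mir34c lies on chromosome 9 from 51103034 to 51103110 and Mir34b from 51103562 to 51103645, with 451 bases between them. Both hairpins lie within the spans of the protein-coding genes Btg4 and Hoatz. Whether they fall in exons or introns was not analysed here.

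Detection was judged against 250 spots without a probe, and a miR counted as above them when the mean of its 6 spots exceeded their median by more than 3 median absolute deviations (MADs). This is a lenient line. Between 154 and 540 of the 569 miRs passed it in an IRI sample, between 179 and 372 in a sham sample and 518 in naive. The median intensity of the empty spots was 186 to 516 in the IRI channel, 33.0 to 43.9 in the sham channel and 511 in naive. The IRI channel of day 10 had the widest scatter of empty spots, a MAD of 55.3, and that of day 14 the next, 36.2. In all, 229 of 569 miRs (40.2%) were above the empty spots in at least 8 of the 16 IRI and sham samples and were tested. miR-34a passed in 16 of these 16 samples and miR-34b-3p in 12, whereas miR-34c with 7 and miR-34b-5p with 4 did not enter the test.

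miR-34a was clear of the empty spots after surgery. It lay 10.7 to 67.1 MADs above them in the 8 IRI pools and 18.8 to 90.3 MADs above in the 8 sham pools, with all 6 spots above the line in each pool. In naive it lay 5.03 MADs above, with 5 of 6 spots above the line, and ranked 280 of 569 by intensity, against ranks 74 to 102 after surgery. Its intensity over the empty spots in naive was 59.4, and the median over all miRs on that array was 59.1. By scanner intensity, miR-34a in naive was as bright as the middle probe of its array. In the authors' processed values it ranked 110 of 569 in naive, with 70 against a median of 18 over all miRs, and 68 to 103 after surgery.

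The other 3 entries stayed near the line. miR-34c was above it in 5 of 8 IRI pools (days 1, 3, 5, 7 and 10) and in 2 of 8 sham pools (days 1 and 10), with a range of -1.06 to 5.37 MADs over both arms, and at 5.29 MADs in naive. On those 5 days 275 to 540 of the 569 miRs passed in the IRI channel, and 518 passed in naive. The intensity of miR-34c over the empty spots was 27.7, 58.4, 45.0, 39.7 and 232 there, and 62.3 in naive. The medians over all miRs were 33.1, 49.2, 43.8, 38.0 and 202, and 59.1 in naive. miR-34b-5p was above the line in 3 IRI pools, 1 sham pool and naive. miR-34b-3p was above it in 7 IRI pools, 5 sham pools and naive, at most 8.54 MADs from the empty spots. With MADs scaled to a normal SD, miR-34c and miR-34b-5p were left above the line in 2 and 1 of the 16 pools, and miR-34b-3p in 6, whereas miR-34a remained above it in all 16. With the 20 nearest empty spots as background, miR-34b-3p was above it in 8 IRI and 5 sham pools, miR-34c in 7 and 2, and miR-34b-5p in 6 and 1. By that local line, between 376 and 569 of the 569 miRs passed in an IRI pool, and between 178 and 453 in a sham pool.

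Of the seed relatives, miR-34c* was above the line in all 17 samples, at 3.38 to 14.7 MADs after surgery. miR-699 was above it in 6 IRI pools, 8 sham pools and naive. The multiciliated relatives miR-449a, miR-449b and miR-449c were above it in 2, 2 and 1 IRI pools and in 1, 1 and 0 sham pools. In naive, where 518 of the 569 miRs passed, they lay at 3.37, 3.21 and 3.90 MADs and so each passed as well. The authors' processed values for the miR-449 miRs did not exceed 23. With the nearest empty spots as background the counts were 5, 6 and 5 IRI pools and 1 sham pool each. By that local line, 376 to 569 of the 569 miRs passed in an IRI pool and 178 to 453 in a sham pool.

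**Figure D1:**
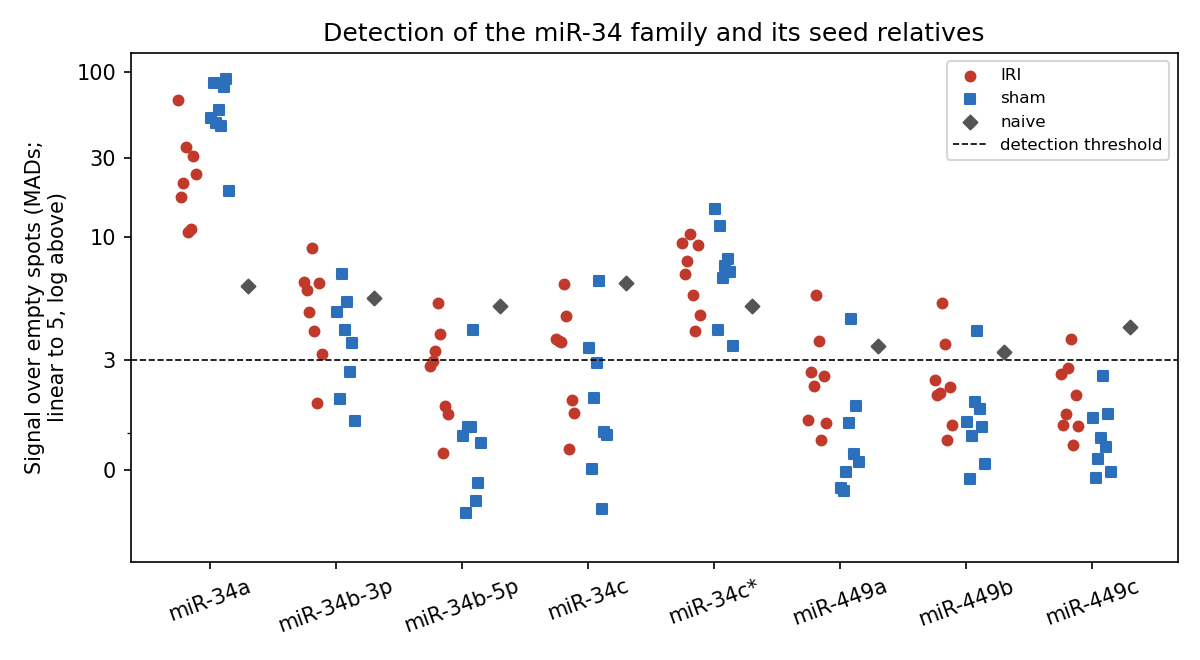
Signal of each probe over the empty spots of its own channel, in MADs of those spots, for the family entries and their seed relatives. miR-699 was not drawn. The vertical axis is linear up to 5 and logarithmic above. Each point is 1 pool (IRI circles, sham squares) or the naive sample (diamonds), and the dashed line is the threshold of 3. miR-34a sits at 10.7 or more in all IRI and sham pools, whereas miR-34b-5p, miR-34c and the miR-449 miRs straddle the line.

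The level of miR-34a was compared after background correction and normalisation across arrays, in arbitrary intensity units. In the order of collection from day 1 to day 30, the level of miR-34a in the 8 IRI pools was 358, 252, 232, 216, 414, 220, 212 and 250.2. In the 8 sham pools, in the same order, its level was 177, 309, 173, 265, 394, 226, 285 and 178. The arms overlapped over most of their range, day 10 was the highest day in both, and day 1 was the second highest in IRI and the second lowest in sham. The IRI pools averaged 8.03 ± 0.36 on the log2 scale (SD, n = 8 days) and the sham pools 7.91 ± 0.44 (SD, n = 8 days). As the pools are bulk kidney, fewer cells that express a miR and less of it per cell cannot be told apart.

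The authors' processed values, on a linear scale with unstated normalisation, were the second measure of the level. IRI ranged from 126 to 318 around a median of 159, and sham from 114 to 362 around a median of 172. The arms overlapped, and day 10 was again the highest in both. The processed value of miR-34a reached 200, the level that the methods take as the floor of reliable detection, in 2 IRI and 4 sham pools. No processed value of miR-34b-3p, miR-34b-5p or miR-34c exceeded 35.

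**Figure D2:**
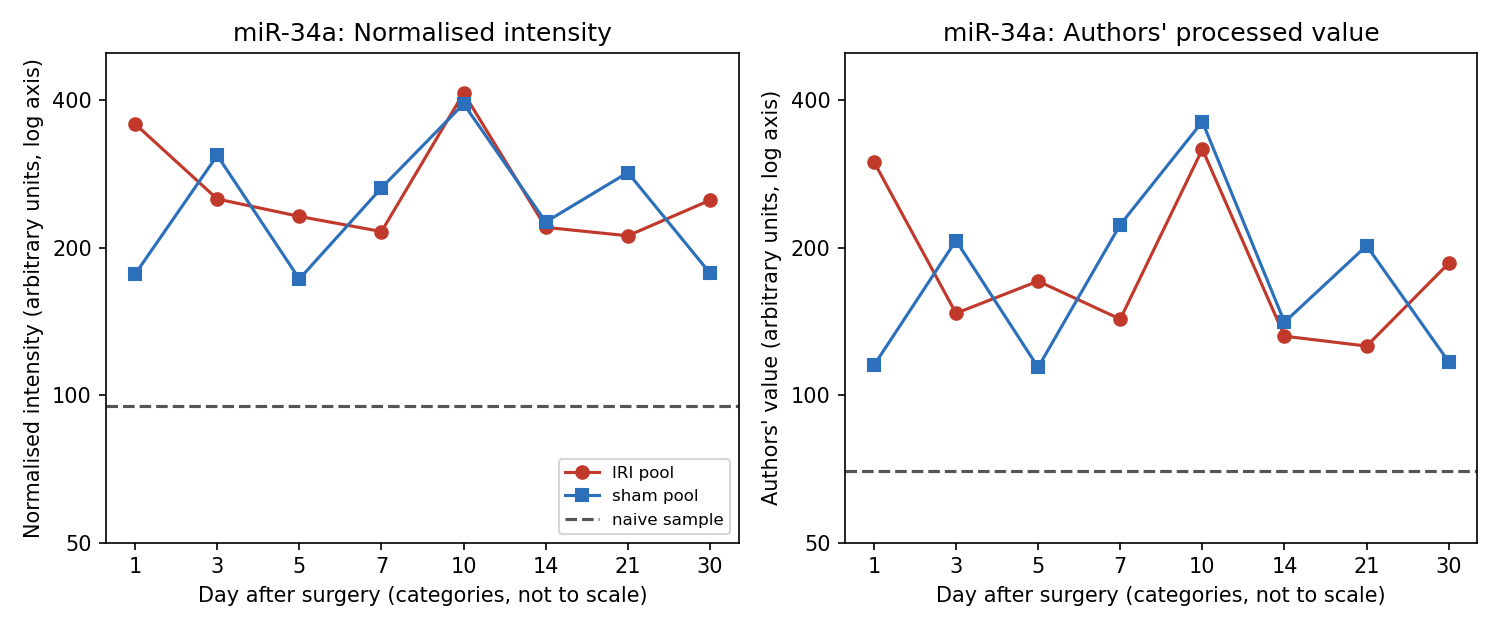
miR-34a by day in IRI (circles) and sham (squares), with the naive sample as a dashed line; each point is 1 pool, the left panel gives normalised intensity and the right panel the authors' processed value, both in arbitrary units on a logarithmic axis. The arms cross repeatedly, both peak on day 10, and all 16 pools lie above the naive sample in both panels.

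Whether injury changed miR-34a was asked of the ratio of IRI to sham within each array. On day 1 the log2 ratio was 1.02 ± 0.037 (SE over 6 spots), a level 2.03 times that in sham. Through the 7 later arrays, from day 3 to day 30, it ran as -0.30 ± 0.056, 0.42 ± 0.064, -0.30 ± 0.087, 0.074 ± 0.067, -0.037 ± 0.11, -0.43 ± 0.026 and 0.49 ± 0.12. IRI was thus higher on 4 days and lower on 4, and on 6 of the 8 days (all but days 10 and 14) the ratio lay more than 2 SE of the spots from 0. The spots cover the array only, since no day had a second pool.

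The mean log2 ratio of miR-34a over the 8 days was 0.12 ± 0.16 (SE), with a 95% interval from -0.25 to 0.49, that is from 0.839 to 1.41 times the sham level (limma, adjusted p = 0.579 over 229 miRs). An exact sign-flip test over the 8 arrays, two-sided, gave p = 0.547, where the smallest p it allows is 0.0078. By comparison, limma called 67 of the 229 miRs (29.3%), 31 higher in IRI (13.5%) and 36 lower (15.7%). The mean rested on day 1, and without that array it was -0.0092. Day 1 was also the day on which miR-34a ranked highest among the tested miRs, with 12 of 229 above it in that array's ratio, whereas on day 21 195 of 229 were above it. The SD of its ratio over days was 0.50, larger than the median of 0.31 over the tested miRs, and 58 of the 229 varied more.

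No trend with time passed the test for miR-34a. The log2 ratio changed by -0.14 ± 0.10 (SE) for each doubling of the day (limma, adjusted p = 0.547, exact permutation of the days p = 0.279, two-sided), beside 4 miRs of 229 called (1.75%). Without day 1 the slope was 0.067. Within the IRI arm the log2 level changed by -0.093 ± 0.076 for each doubling of the day (limma, adjusted p = 0.586, 3.06% of tested miRs called) and within sham by 0.044 ± 0.100 (limma, adjusted p = 0.968, 0.873% called). The difference between these 2 slopes is the slope of the ratio.

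miR-34b-3p, the one further entry that passed the filter, is the strand of the miR-34b hairpin with its own seed. Its normalised intensity was 98.5 to 114 in IRI, with a median of 105, and 96.3 to 107 in sham, with a median of 101, against 93.6 in naive. The arms overlapped, and 6 of 8 arrays had the higher value in IRI. Averaged over the arrays, the log2 ratio was 0.057 ± 0.036 (SE; limma, adjusted p = 0.250, exact sign-flip p = 0.0625), with a 95% interval from -0.025 to 0.14. Without the day 10 array the mean was 0.069, with 6 of 7 days higher in IRI (exact sign-flip p = 0.047). Without days 10 and 14 the mean was 0.062, and without day 1 it was 0.060 (exact sign-flip p = 0.094 for each). In the authors' processed values, which lay between 18 and 35, IRI was higher on 8 of 8 days, as for 10.5% of the tested miRs, and the mean log2 ratio was 0.40 (limma, adjusted p = 0.020). With plain background subtraction it was 0.41, higher in IRI on 6 of 8 days (limma, adjusted p = 0.079, exact sign-flip p = 0.039). With median scaling of the channels it was -0.29, where the median over all tested miRs was -0.34. Of these ways of processing, the authors' values gave a call for miR-34b-3p, where 77 of the 229 tested miRs (33.6%) were called, and the others did not.

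For miR-34c and miR-34b-5p the values come from the fit over all 569 miRs, since they failed the filter. miR-34c had a normalised intensity of 88.3 to 120 in IRI (median 93.1) and 84.3 to 119 in sham (median 94.0), against 97.9 in naive. Both maxima fell on day 10, and the ranges overlapped almost entirely. Its mean log2 ratio was 0.0007 ± 0.020 (SE; limma, adjusted p = 0.983, exact sign-flip p = 0.977), with a 95% interval from -0.046 to 0.048, beside 106 of 569 miRs called (18.6%). The mean log2 ratio of miR-34b-5p was 0.022 ± 0.017 (limma, adjusted p = 0.397). It was 0.38 in the authors' values (limma, adjusted p = 0.249) and -0.48 with median scaling (limma, adjusted p = 0.054). With the median of the spots it was 0.035, with IRI higher on 6 of 8 days (limma, adjusted p = 0.144, exact sign-flip p = 0.047). Plain background subtraction gave 0.12, with IRI higher on 3 of 8 days (exact sign-flip p = 0.36). The nearest empty spots as background gave 0.0058, with IRI higher on 5 of 8 days (exact sign-flip p = 0.66).

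The offset of the background correction and the loess curve bring the ratio of a probe at background towards 0 by construction, so these intervals bound the array value and not a change of the miR. The log2 ratio of miR-34c changed by -0.0006 ± 0.015 for each doubling of the day (limma, adjusted p = 0.987), where none of the 569 miRs was called (0%), 51 having an unadjusted p under 0.05. Its level changed by -0.0054 ± 0.034 in IRI (limma, adjusted p = 0.973, 0.351% called) and by -0.0048 ± 0.034 in sham (limma, adjusted p = 0.994, 0.176% called). With median scaling the mean ratio of miR-34c was -0.47 (limma, adjusted p = 0.059), and that scaling moved the median over all tested miRs from -0.036 to -0.34.

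The ratio of miR-34a minus that of miR-34c within each array averaged 0.12 ± 0.18 (SE, n = 8 arrays; exact sign-flip test, two-sided, p = 0.563). With miR-34c at background and its ratio brought towards 0, this is close to the test of miR-34a alone, and whether the 2 loci moved by different amounts could not be read from these arrays.

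**Figure D3:**
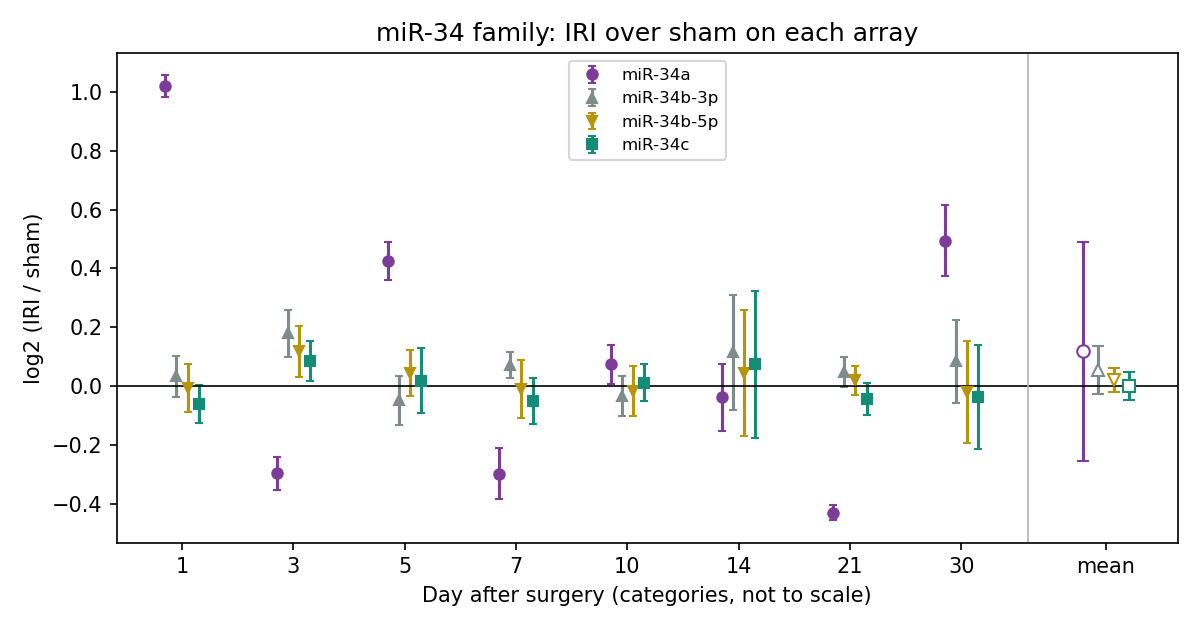
log2 ratio of IRI to sham for the 4 family entries on each array (vertical axis) by day, with bars for the SE over the 6 spots; at the right, open symbols give the mean over the 8 days with its 95% interval from limma. miR-34a ranges from -0.43 to 1.02, whereas the other 3 entries, which are near background, stay between -0.060 and 0.18, and each interval at the right includes 0.

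Against naive kidney, miR-34a was higher in 8 of 8 IRI and 8 of 8 sham pools, at a normalised intensity of 95.3 in naive against a lowest value of 212 in IRI and 173 in sham. The pools lay 0.86 to 2.12 above naive on the log2 scale, with a median of 1.34. With plain background subtraction they lay 2.89 to 4.61 above it, and all 16 were also higher with the median of the spots and with the nearest empty spots as background. With 1 naive sample on its own array there is no test. Naive was likewise below all 16 pools for 81 of the 229 tested miRs (35.4%), and the median pool exceeded naive by more than that of miR-34a for 24 of them. In the authors' values naive was 70, again below all 16 pools, as for 17.9% of the tested miRs. With median scaling of the channels only 2 of 16 pools exceeded naive, and that scaling set the median tested miR 1.55 below naive on the log2 scale. The median pool of miR-34a lay 0.71 below naive under that scaling (log2 -0.71), and 77 of the 229 tested miRs stood higher against naive. The direction of miR-34a against naive thus differed between median scaling and the other ways of processing, and the cause was not tested. miR-34b-3p was higher than naive in 16 of 16 pools, by at most 0.29 on the log2 scale, but in 10 of 16 in the authors' values. miR-34b-5p exceeded naive in 5 pools, and in 13 in the authors' values. miR-34c exceeded naive in 4 pools, and in 2 in the authors' values. With median scaling each of these 3 entries was below naive in all 16 pools, so the direction of miR-34b-3p and miR-34b-5p against naive changed with the processing, whereas miR-34c exceeded naive in at most 4 of 16 pools in each of the 6 ways of processing the levels.

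The other miRs tied to p53 form a list of 20, drawn from general knowledge, of which 16 were tested. miR-34a itself was not counted in it. Of the miRs that p53 induces or helps to mature, 8 were tested, 1 rose in IRI and 3 fell, beside 13.5% and 15.7% of all tested miRs, with a median log2 ratio of -0.14 against -0.036 over all tested miRs. miR-15a, which targets Bcl2 and cyclin mRNAs, rose by 0.78 ± 0.19 (SE; limma, adjusted p = 0.021). miR-192 and miR-194, which share clusters and are abundant in renal tubules, had log2 ratios of -0.88 ± 0.19 (limma, adjusted p = 0.018) and -0.76 ± 0.15 (limma, adjusted p = 0.014), and miR-107 had -0.62 ± 0.16 (limma, adjusted p = 0.028). The mean ratios of miR-16, miR-143, miR-145 and miR-200c lay between -0.14 and 0.15 and did not pass. miR-215 failed the filter and miR-605 was no entry of the array.

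Of the miRs that p53 represses, members of the miR-17-92 cluster that drives proliferation, 5 of 6 were tested and 3 rose, with a median of 0.63. miR-20a had a log2 ratio of 0.80 ± 0.13 (limma, adjusted p = 0.0085), and miR-17 and miR-92a had 0.65 ± 0.13 and 0.63 ± 0.12. miR-18a and miR-19b, at 0.13 and 0.012, did not pass. Of the 3 tested miRs that act on the p53 mRNA, miR-25 rose by 1.18 ± 0.12 (limma, adjusted p = 0.00054), miR-30d fell by 0.34 ± 0.092 (limma, adjusted p = 0.031), and miR-125b-5p, at 0.48 ± 0.25, did not pass. Over the 3 groups, 5 of 16 were called higher and 4 lower, against 13.5% and 15.7% of all tested miRs. The value of miR-34a, 0.12, lay within the range of each group.

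**Figure D4:**
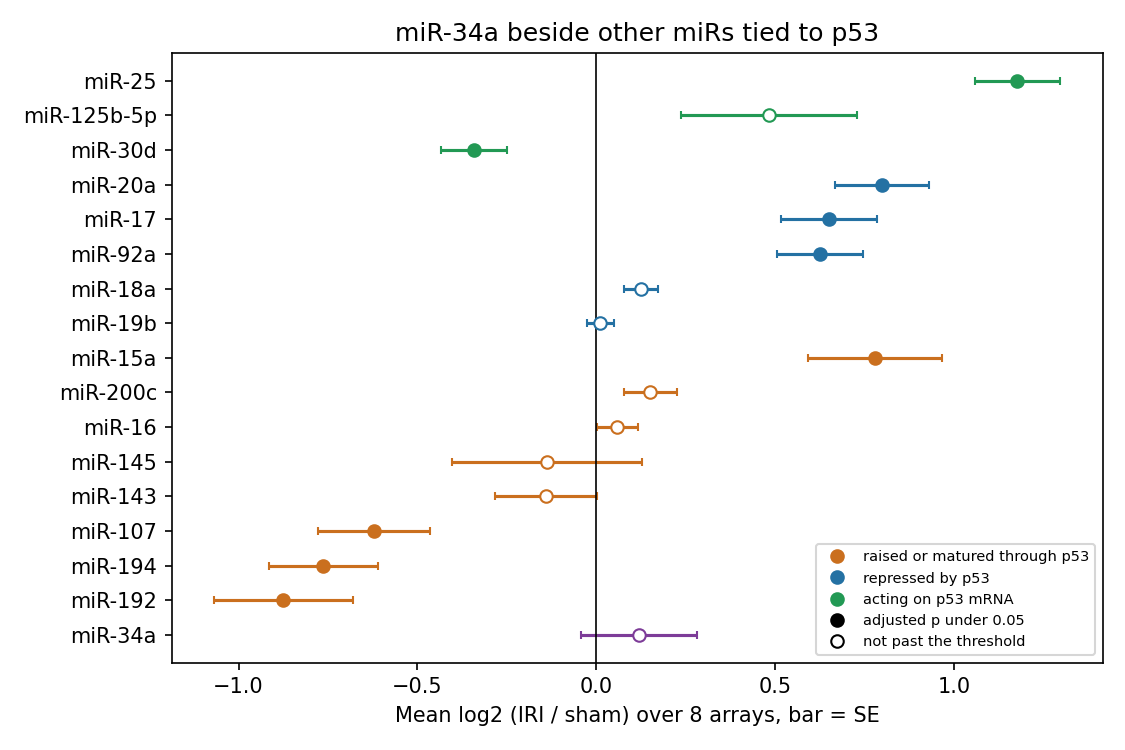
Mean log2 ratio of IRI to sham over the 8 arrays (horizontal axis) with its SE for miR-34a and the 16 tested miRs tied to p53, coloured by their relation to p53; filled points have a limma adjusted p under 0.05. miR-34a, at the bottom, has an SE that includes 0, miR-25 is the highest at 1.18 and miR-192 the lowest at -0.88.

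Markers of the cell types in the pools moved between the arms as follows, beside 13.5% of all tested miRs called higher in IRI and 15.7% called lower. All 8 miRs that mark kidney epithelium, the labelled tissue, passed the filter, and 1 rose (miR-10a) and 4 fell (miR-192, miR-194, miR-30d and miR-200b), with summed normalised levels of 26723 to 33652 in IRI and 24973 to 35330 in sham. All 3 tested leukocyte miRs of 5 rose, miR-155 by 1.51 ± 0.20 (limma, adjusted p = 0.0018), with summed levels of 1469 to 3218 in IRI and 818 to 1164 in sham. Of the 3 red cell miRs, miR-144 failed the filter, with IRI higher on 6 of 8 days. miR-451 and miR-486, with IRI higher on 1 and 2 days, did not pass in the mean ratio. Both passed in its slope, at -0.79 (limma, adjusted p = 0.031) and -0.57 (limma, adjusted p = 0.042) for each doubling of the day, and were 2 of the 4 slopes called over all tested miRs (1.75%). No slope was called without day 7, 14, 21 or 30, or with no filter. miR-192, miR-194 and miR-30d stand both in the p53 list and among the epithelial markers, and the part of cell composition in these ratios was not tested.

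The tested miRs whose ratios over the 8 days ran most like those of miR-34a were miR-30e (Pearson r = 0.87), miR-29c (r = 0.86), miR-29a (r = 0.83), miR-24-2* (r = 0.82) and miR-425 (r = 0.80). These values describe 8 arrays that share their dyes and were picked as the highest of 228, and without day 1 they were 0.69, 0.70, 0.59, 0.77 and 0.52. On day 1 miR-29c, which targets collagen mRNAs, had a log2 ratio of 1.94 and miR-29a 0.85, and their median ratios on the other days were -0.42 and -0.36. None of the 5 passed the test of the mean ratio. The nearest to miR-34c were miR-423-5p (r = 0.87), miR-674* (r = 0.81) and its own passenger strand miR-34c* (r = 0.81). None of the 8 ratios of miR-34c lay more than 2 SE of its spots from 0, so these correlations rank miRs against the scatter of a probe at background.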

How the data were processed

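Small RNAs of pooled kidneys were hybridised on 9 miR arrays. Per the file headers, the scanner files hold mean spot intensities that the authors deposited with no background correction or normalisation. The value table deposited by the authors holds processed intensity values on a linear scale, made by a normalisation that no source used here gives. The correlation of each of its columns with the scanner channel it names was 0.981 or higher, which also settled the channels of day 5, whose header names only samples A and B.

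Background was corrected with normexp (limma 3.58.1 in R 4.3.3, offset 50). The 6 spots of a miR were averaged on the log2 scale, the channels were normalised by loess (span 0.3, controls left out), and the arrays by quantiles with naive, which forces 1 distribution on all. limma was fitted to the log2 IRI/sham ratios of 229 miRs with p-values adjusted by Benjamini-Hochberg and called under 0.05, without naive. The array acts as a replicate block and the days as replicates, so that the error holds change over time as well as noise between pools. The pairing comes from the shared array and day. The deviations of IRI and sham from their arm means correlated at -0.061 to 0.67 within a day. Slopes used log2 of the day. Exact permutation tests stand beside limma for single miRs. Precision is limited by the number of arrays. The fit was also run on simulated ratios with independent normal noise and the same SD for all miRs, the median of the tested miRs. That simulation does not cover miRs that vary more, such as miR-34a.

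The miRs named are the family, its seed relatives, the 5 and 3 tested miRs most correlated with miR-34a and miR-34c, the p53 list and the cell type markers. The members and lists were chosen with earlier results of these data known. Alternatives were the authors' values, plain subtraction, median scaling, the median of spots, other filters, the study's 7 days, each day left out, another variance model, no replicate block and linear day. Background from the nearest empty spots, a filter on scaled MADs and arrays left out together were chosen after seeing the data.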

Additional observations from a re-analysis of the deposited data

Results flagged for a closer look

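Among 12 groups of 8 values (the log2 level in IRI, the log2 level in sham and the log2 ratio of the 4 family entries), 3 held a day that stood apart from the other 7 by more than 0.526 of the whole range. Chance alone would give this in about 5% of such groups. The groups are not independent, since the IRI and sham levels share the normalised average of their array and the ratio is their difference. The count of 3 therefore cannot be weighed against that share. On day 10 the log2 level of miR-34c was 6.91 in IRI, against 6.46 to 6.65 on the other days, and 6.90 in sham, against 6.40 to 6.63. Its ratio on that day was 0.013. Day 10 was also the highest day of miR-34a in both arms, and the day whose IRI channel had the widest scatter of empty spots. The part of the array in these levels was not tested. On day 3 the log2 ratio of miR-34b-5p was 0.12, against -0.019 to 0.045 on the other days. Both of its values on that array were below the detection line.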

How the results depend on the processing

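None of the 155 alternative values for miR-34a and miR-34c passed its threshold, and 33 changed sign. The mean ratio of miR-34a turned to -0.028 with plain subtraction, and with 1 day left out it ranged from -0.0092 (without day 1) to 0.20. With 1 day left out its slopes ranged from -0.25 to 0.067 for the ratio, from -0.11 to -0.018 in IRI and from -0.085 to 0.14 in sham, the last turning to -0.0044 for each day on the linear scale of days. The mean ratio of miR-34c turned to -0.47 with median scaling, -0.0059 with the median of spots, -0.00098 on the 7 days and -0.0073 with local background, and ranged from -0.012 to 0.0093 with 1 day left out. Its slope of the ratio turned to 0.078 in the authors' values, 0.039 with plain subtraction, 0.0052 with the median of spots and 0.0052 with local background, and ranged from -0.026 to 0.0075 with 1 day left out. Its slope in IRI turned to 0.043 in the authors' values and 0.0026 with local background, with a range of -0.046 to 0.0069, and that in sham to 0.18 with median scaling, with a range of -0.020 to 0.0063. The difference between miR-34a and miR-34c turned to -0.049 in the authors' values and -0.067 with plain subtraction, with a range of -0.019 to 0.19. The cause of these changes was not tested.

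Of all tested miRs, 67 were called in the mean ratio, 42 on the 7 days, 106 with no filter and 17 to 68 with 1 day left out, the fewest without day 21, with 27 to 42 without day 7, 10, 14 or 30. In the slope, 4 were called, 2 with plain subtraction, 13 with median scaling, 9 with linear day, 0 with no filter and 0 to 8 with 1 day left out (8 without day 1, 2 without day 3 and 0 without day 7, 14, 21 or 30). With no replicate block the mean ratio of miR-34a stayed at 0.12 (limma, adjusted p = 0.691) and 51 miRs were called, and no call of miR-34a or miR-34c changed. miR-34c could not be given under the filters it fails. The brightness of the probes limits what can be said, since miR-34b-5p and miR-34c were at or near the empty spots in most pools.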
